A study of Homo sapiens with 7 samples.

Results

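The genes described here are 49 genes of the mesenchymal state and of signalling by the transforming growth factor beta (TGF-beta) family. They were chosen as a named list of mesenchymal, TGF-beta, bone morphogenetic protein (BMP) and SMAD genes and found by symbol in the deposited table. All 49 symbols matched 1 row each, among 60675 gene identifiers. RNA was sequenced from MDA-MB-231, a mesenchymal-looking human line of triple-negative breast cancer, after transfection with siRNA against DEPDC1 (siDEPDC1, 4 libraries) or with control siRNA (siCTL, 3 libraries). Both groups received the same lipid reagent, Lipofectamine RNAiMAX, had their medium replaced 8 h after transfection and were harvested 2 days after it. No genetic change or drug separates the groups beyond the siRNA, and no added TGF-beta is named in the labels. The results hold for this line alone, and the sources used here give neither the siRNA sequence nor the number of duplexes. Effects of the loss of DEPDC1 and other effects of the siRNA cannot be told apart in this design. Whether each library had a culture of its own is not stated, so a p-value here reflects library-to-library spread, which may be technical. In bulk RNA, fewer cells of a type and less RNA per cell cannot be told apart.

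TGF-beta family ligands are secreted, many as latent complexes held in the matrix by latent TGF-beta binding proteins (LTBPs). An active ligand brings a type II receptor together with a type I receptor, which phosphorylates SMAD2 and SMAD3 on the TGF-beta and activin branch or SMAD1 and SMAD5 on the BMP branch. These enter the nucleus with SMAD4, and inhibitory SMADs, corepressors such as SKI and SKIL, and ubiquitin ligases such as SMURF1 and SMURF2 limit the response. In breast epithelium the pathway is known for driving epithelial-mesenchymal transition (EMT) through ZEB, SNAI and TWIST factors, and MDA-MB-231 cells are a common model of the state that results.

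Depth and identity were checked before the members were read. Totals ran from 7690583 to 13483305 counts in siDEPDC1 libraries and from 11704246 to 15360409 counts in siCTL libraries, and the 49 genes took 0.828% to 0.842% of the counts in siDEPDC1 and 0.825% to 0.853% in siCTL. A count of 3 corresponded to 0.221 to 0.391 CPM (counts scaled to a common library total) in siDEPDC1 libraries and 0.197 to 0.261 CPM in siCTL libraries, for counting error only. DEPDC1, the targeted gene, was at 15.3, 12.7, 13.4 and 11.9 CPM in siDEPDC1 libraries 1 to 4, against 114, 119 and 120.3 CPM in siCTL libraries 1 to 3. Its level was 8.89-fold lower in siDEPDC1 (log2 fold change -3.15 ± 0.075 SE, edgeR adjusted p = 1.2e-26). The 5 genes taken to define this basal line (VIM, CD44, CAV1, MSN and ZEB1) summed to 5696 to 6080 CPM in siDEPDC1 and 5914 to 6185 CPM in siCTL. Among them CAV1 (log2 fold change -0.42, edgeR adjusted p = 1.1e-07) and ZEB1 (-0.36, edgeR adjusted p = 1.5e-05) were lower in siDEPDC1. VIM, CD44 and MSN did not pass the test. The oestrogen and progesterone receptor genes ESR1 and PGR were too low to be tested, and with ERBB2 they summed to 62.3 to 70.9 CPM in siDEPDC1 and 64.1 to 66.1 CPM in siCTL. The 4 luminal markers, KRT19 by far the highest, summed to 409 to 499.7 CPM in siDEPDC1 and 337 to 416 CPM in siCTL. KRT19 was higher in siDEPDC1 (log2 fold change 0.24, edgeR adjusted p = 0.006) although its groups overlapped, and GATA3, FOXA1 and TFF1 did not pass. Of 7 fibroblast markers only 1, PDGFRB, was high enough to be tested. It did not pass (log2 fold change 0.33, edgeR adjusted p = 0.1), and its groups overlapped. The sums of the 7 markers did not overlap, at 5.45 to 6.95 CPM in siDEPDC1 and 4.33 to 5.08 CPM in siCTL. PDGFRB made up most of these sums, at 5.22 ± 0.609 CPM in siDEPDC1 and 4.17 ± 0.622 CPM in siCTL (SD, n = 4 and 3). DCN was at 0 in all libraries, and the part of these markers in the results for matrix genes was not tested. The 5 endothelial markers summed to 21.6 to 25.9 CPM in siDEPDC1 and 21.1 to 25.7 CPM in siCTL.

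Between siDEPDC1 and siCTL there were changes in both directions among the 49 genes, nearly all smaller than 2-fold. The genes lower in siDEPDC1 included SMAD3, the TGF-beta isoform gene TGFB2, LTBP3, the SMAD corepressor genes SKIL and TGIF1, and ZEB1. They also included the receptor genes ACVR1, TGFBR3 and TGFBR1, and ENG, whose groups overlapped and whose call depended on single libraries. Follistatin (FST), PMEPA1, the activin subunit gene INHBA, SNAI2, FBN1 and TGFBR2 were higher. VIM, TGFB1, SMAD2 and SMAD4 did not pass the test. Of the 49 genes, 43 were high enough to be tested, 14 of them lower and 6 higher at an adjusted p under 0.05 (edgeR quasi-likelihood test, Benjamini-Hochberg adjustment over all 16583 tested genes), and 23 did not pass. The called share was 46.5%, against 34.4% of all tested genes. Lower calls made up 32.6% of the tested members against 17.9% of all genes, and higher calls 14% against 16.5%. The median log2 fold change of siDEPDC1 over siCTL was -0.05 over the 43 genes and 0.00 over all genes. FST, 1 of the 43 tested members, was both called and changed at least 2-fold, as were 435 of all 16583 tested genes. Changes that large were thus few among all tested genes as well. Over the 20 called members the median size of the log2 fold change was 0.39, against 0.37 over all called genes. Libraries of the 2 groups did not overlap for 19 of the 43 genes, which is 44.2% against 37.3% of all tested genes.

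**Figure D1:**
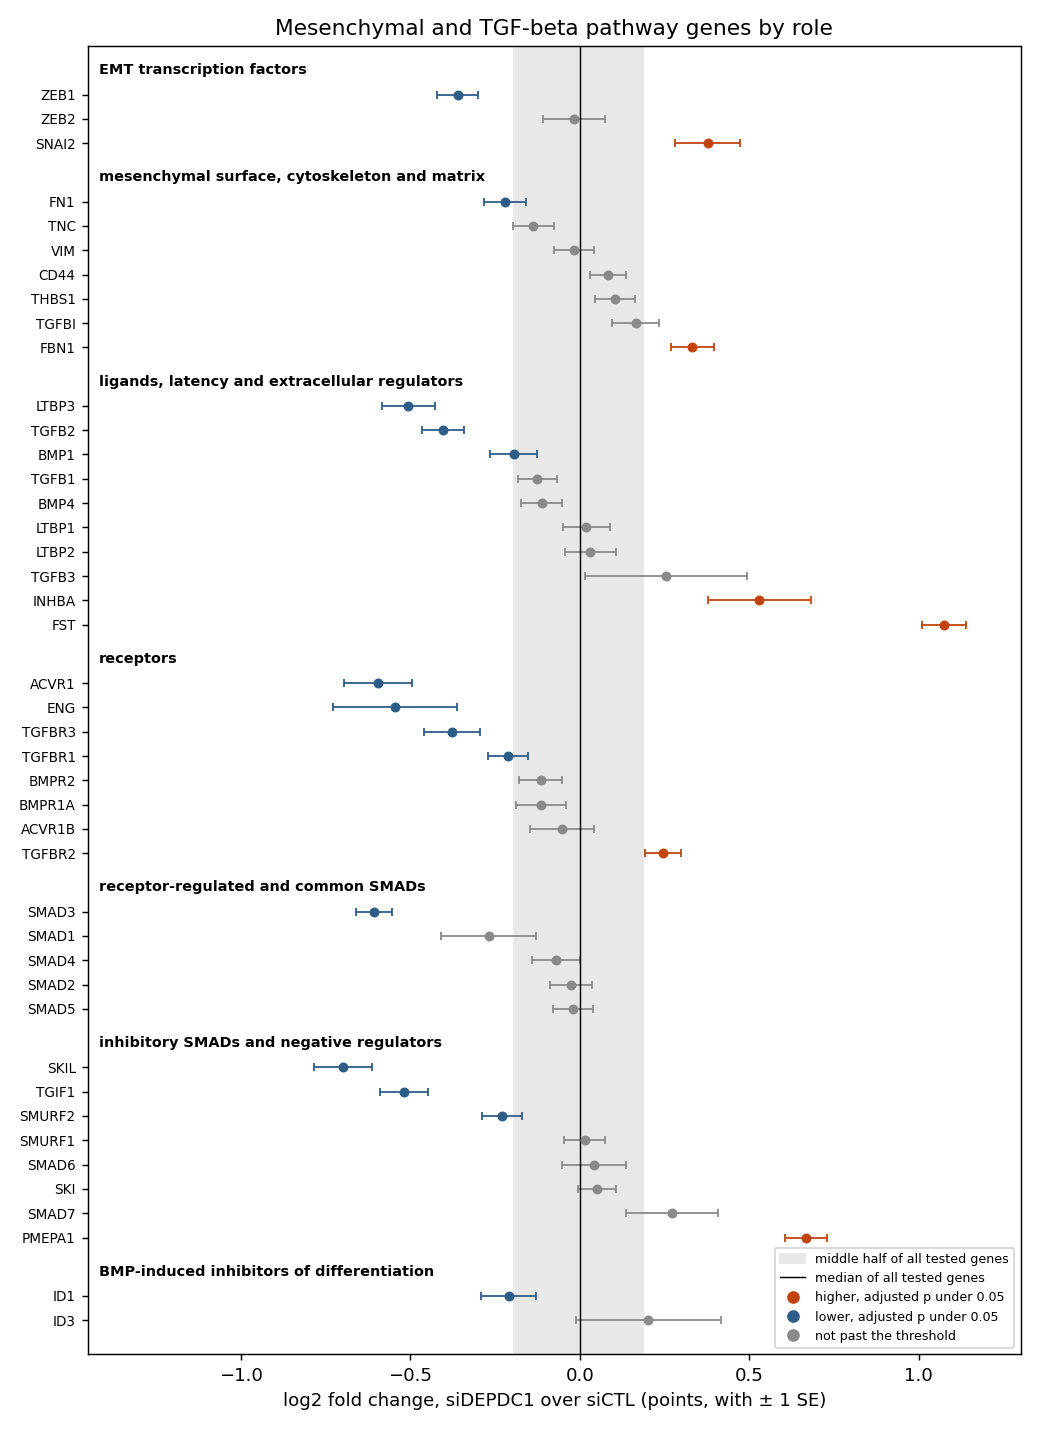
Log2 fold change, siDEPDC1 over siCTL, of the 43 tested members, grouped by role, with bars of 1 standard error. The vertical line is the median of all tested genes (0.00) and the grey band runs from their 25th to their 75th percentile (-0.19 to 0.19, log2), and each role holds called genes with SKIL at the low end (-0.70) and FST at the high end (1.08).

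Some of these transcripts share a sequence feature, and the genes were chosen with earlier results of these data known. An earlier analysis of these same libraries had found the 7-base word GATAACT in the 3' UTRs of genes that were lower in siDEPDC1, so the counts that follow describe the members and are not independent support. In 1 annotated GENCODE 29 transcript per gene, read on the transcript's own strand only, 6 of the 43 tested members held the word in the 3' UTR. These were the receptor gene TGFBR1, SMAD3, SMAD4, SMAD6, SKIL and ZEB2, the last with 2 copies. The share was 14%, against 7.71% of the 12324 tested genes that could be searched and 6.73% of 18423 annotated genes. The 7 sites are shown because they mark which members belong to that larger set, each as 23 bases of the transcript strand in GRCh38 with the word in capitals.
TGFBR1, chr9:99151819-99151841, plus strand: ttactgtcGATAACTgcagataa
SMAD3, chr15:67194575-67194597, plus strand: ttcagacaGATAACTatttaatt
SKIL, chr3:170392507-170392529, plus strand: tgcatgacGATAACTaggcattc
SMAD4, chr18:51082342-51082364, plus strand: ttttccctGATAACTaagtaatt
SMAD6, chr15:66782720-66782742, plus strand: cttggccaGATAACTaagaggaa
ZEB2 first copy, chr2:144386752-144386774, minus strand: ctctaggcGATAACTttattaat
ZEB2 second copy, chr2:144385827-144385849, minus strand: cacaatcaGATAACTtttaaaaa
TGFBR1, SMAD3 and SKIL were lower in siDEPDC1, and SMAD4, SMAD6 and ZEB2 did not pass the test. None of the 6 was higher. Their median log2 fold change was -0.14, against -0.03 over the 37 tested members without the word, of which 11 were lower and 6 higher. Over all tested genes, 54.1% of the 950 carriers and 17.5% of the 11374 other genes were lower, and 8.32% and 19.7% were higher. The 3' UTRs of the 6 carriers had a median length of 4773 bases, against 1203 bases for the other members, and the part of that length in the result was not tested.

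The ligands and the proteins that store or bind them act first in the pathway, and their genes changed in both directions. Of 10 such genes, all tested, LTBP3, TGFB2 and BMP1 were lower in siDEPDC1 and FST and INHBA were higher. Their called share was 50%, against 34.4% of all tested genes. FST (ENSG00000134363, chr5:53480409-53487134, plus strand) encodes follistatin, which binds and neutralises activins. It was at 84.3, 91.1, 97.9 and 91.3 CPM in siDEPDC1 libraries, against 44.2, 42.5 and 42.9 CPM in siCTL libraries. Every siDEPDC1 library lay far above every siCTL library, with a log2 fold change of 1.08 ± 0.065 (SE), a level 2.11-fold higher in siDEPDC1 (edgeR adjusted p = 2.2e-15). INHBA, whose product dimerises to activin A, was at 6.16, 6.19, 5.73 and 4.81 CPM in siDEPDC1, against 3.76, 4.07 and 4.08 CPM in siCTL. All 4 siDEPDC1 libraries were above the siCTL libraries, with a log2 fold change of 0.53 ± 0.15 (edgeR adjusted p = 0.0068). The activin subunit gene INHBA and the gene of its binding protein were thus both higher in siDEPDC1. INHBB, the gene of another activin subunit, was at 50.75 ± 3.92 CPM in siDEPDC1 and 49.24 ± 3.83 CPM in siCTL (SD, n = 4 and 3). Its log2 fold change of 0.04 did not pass (edgeR adjusted p = 0.68).

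TGFB2 (ENSG00000092969, chr1:218346235-218444619, plus strand) was at 58.1, 56.9, 55.5 and 57.2 CPM in siDEPDC1, against 77.9, 72.8 and 75.5 CPM in siCTL. The siDEPDC1 libraries lay close together and below all siCTL libraries, with a log2 fold change of -0.40 ± 0.061 (edgeR adjusted p = 2.6e-06). The annotated transcript TGFB2-OT1 covers 26.6% of its exon bases on the same strand and was listed at 0 in all libraries. TGFB1, the isoform most abundant per exon length here, was at 168, 169, 169.7 and 191 CPM in siDEPDC1, against 188, 196 and 187 CPM in siCTL. Only siDEPDC1 library 4 reached the siCTL range. The log2 fold change of TGFB1 was -0.13 ± 0.057 with an unadjusted 95% interval of -0.24 to -0.01 and did not pass the test (edgeR adjusted p = 0.085), but it did without siDEPDC1 library 4 (-0.17, edgeR adjusted p = 0.013). TGFB1 shares 6.64% of its exon bases with HNRNPUL1 on the opposite strand, which was lower itself (log2 fold change -0.23), and reads from the shared bases cannot be told apart without a known strand setting. TGFB3 had few counts, at 2.38 ± 0.76 CPM in siDEPDC1 and 1.99 ± 0.386 CPM in siCTL (SD, n = 4 and 3), and did not pass.

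LTBP3 (ENSG00000168056, chr11:65538805-65558930, minus strand), which keeps latent TGF-beta in the matrix, was at 38.7, 40.7, 35.2 and 45.9 CPM in siDEPDC1, against 61.2, 58.6 and 51.7 CPM in siCTL. The groups did not overlap, with a log2 fold change of -0.51 ± 0.077 (edgeR adjusted p = 2.7e-06). Its relatives LTBP1 and LTBP2 did not pass, with log2 fold changes of 0.02 and 0.03. BMP1, a metalloproteinase that trims procollagens and matrix proteins, was at 46.1 ± 3.03 CPM in siDEPDC1 and 52.6 ± 2.6 CPM in siCTL (SD, n = 4 and 3). Its log2 fold change of -0.19 ± 0.069 passed (edgeR adjusted p = 0.028) although the groups overlapped. That call was lost when siCTL library 1 (edgeR adjusted p = 0.084) or 2 (0.14) or siDEPDC1 library 2 (0.13) or 3 (0.059) was left out, with DESeq2 (0.06), with library size alone as the scaling (0.064) and with libraries thinned to equal totals (0.15). BMP4, a ligand of the BMP branch, was at 138 ± 8.04 CPM in siDEPDC1 and 149.6 ± 10.3 CPM in siCTL and did not pass.

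Of the 8 receptor genes, 4 were lower and 1 was higher, a called share of 62.5% against 34.4% of all tested genes. The type II and the type I receptor of TGF-beta itself moved in opposite directions. TGFBR2, the type II receptor that binds the ligand first, was at 457, 431, 429 and 431 CPM in siDEPDC1, against 367, 367 and 373 CPM in siCTL. Every siDEPDC1 library was above every siCTL library, and siDEPDC1 library 1 was the highest, with a log2 fold change of 0.25 ± 0.053 (edgeR adjusted p = 0.00042). TGFBR1, the type I receptor kinase and a carrier of the word shown above, was at 185, 177, 169 and 154 CPM in siDEPDC1, against 203, 192 and 199.8 CPM in siCTL. The groups were apart, with siDEPDC1 library 1 nearest to siCTL, and the log2 fold change was -0.21 ± 0.059 (edgeR adjusted p = 0.0054).

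ACVR1 (ENSG00000115170, chr2:157736444-157875862, minus strand), a type I receptor of BMPs and activins, was at 14.97, 11.3, 14.3 and 13.5 CPM in siDEPDC1, against 17.9, 20.9 and 21.8 CPM in siCTL. All siDEPDC1 libraries were below the lowest siCTL library, with a log2 fold change of -0.60 ± 0.10, a level 1.51-fold lower (edgeR adjusted p = 1.5e-05). TGFBR3 encodes betaglycan, a co-receptor that presents TGF-beta 2 to the type II receptor. It was at 27.0, 28.3, 30.6 and 29.5 CPM in siDEPDC1, against 40.1, 32.0 and 40.5 CPM in siCTL. The groups did not overlap, though siCTL library 2 came close to the siDEPDC1 libraries. The log2 fold change was -0.38 ± 0.082 (edgeR adjusted p = 0.00044). ENG, the co-receptor endoglin, was low, at 3.23, 2.87, 2.34 and 4.54 CPM in siDEPDC1, against 4.94, 5.38 and 4.00 CPM in siCTL. The groups overlapped through siDEPDC1 library 4 and siCTL library 3. Its log2 fold change of -0.55 ± 0.18 passed (edgeR adjusted p = 0.019). ENG shares 7.95% of its exon bases with the antisense gene AL162586.1, and reads from the shared bases cannot be told apart. AL162586.1 was at 3.49 ± 0.717 CPM in siDEPDC1 and 4.31 ± 0.654 CPM in siCTL and did not pass (log2 fold change -0.33, edgeR adjusted p = 0.16). The ENG call was lost when siCTL library 1 (edgeR adjusted p = 0.051) or 2 (0.11) or siDEPDC1 library 2 (0.09) or 3 (0.071) was left out, with DESeq2 (0.078) and with libraries thinned to equal totals (0.056). ACVR1B, the main type I receptor of activin, and the BMP receptor genes BMPR1A and BMPR2 did not pass, with log2 fold changes of -0.05, -0.12 and -0.12, and BMPR2 passed only when siDEPDC1 library 1 was left out (edgeR adjusted p = 0.047).

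**Figure D2:**
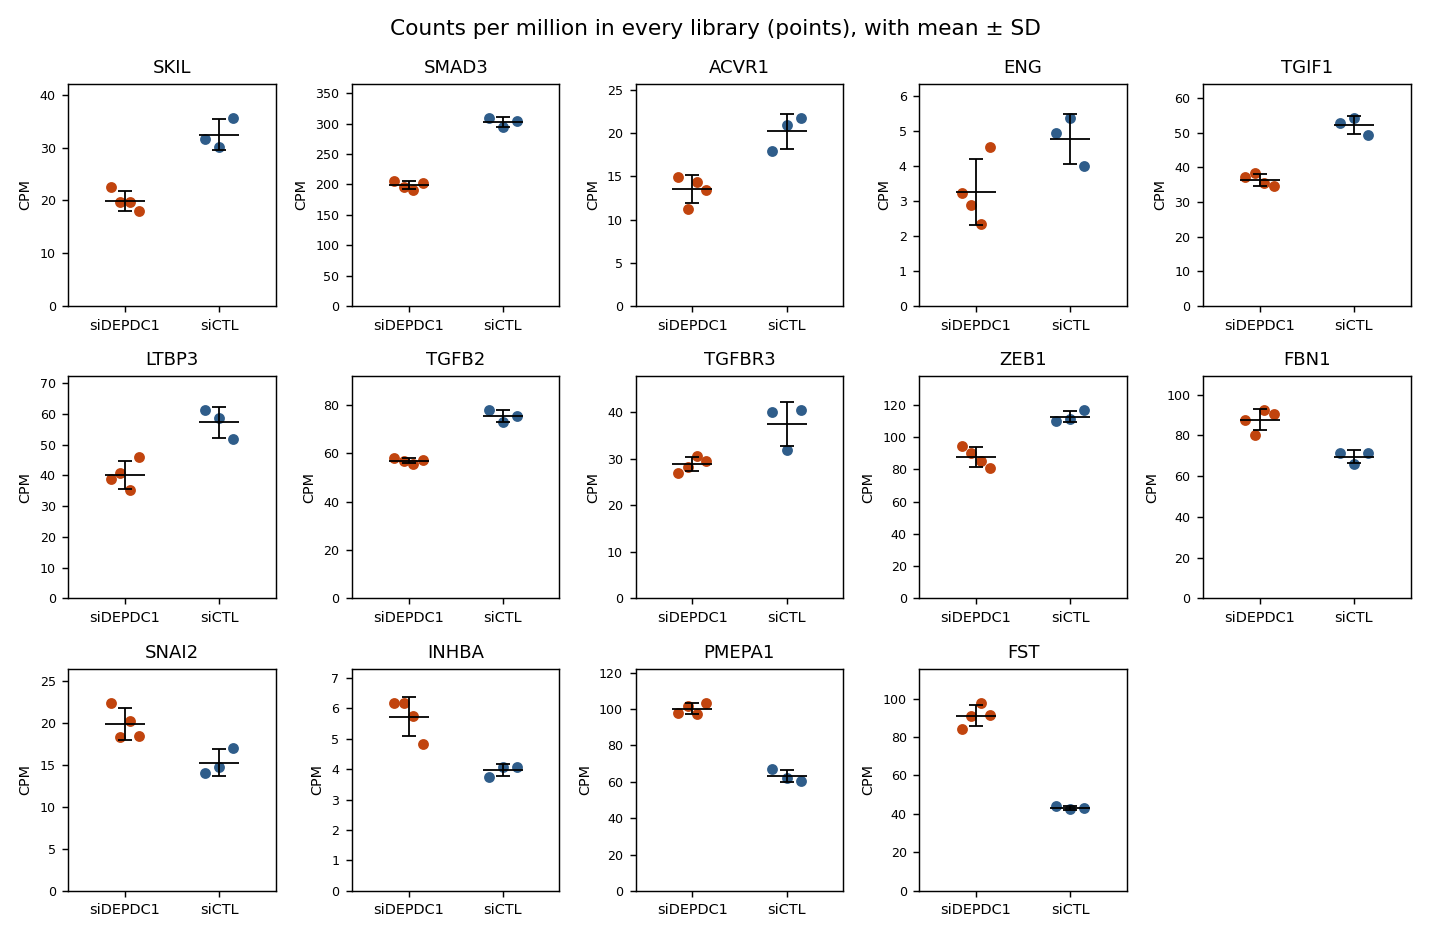
CPM in each library (points) of the 14 called members with a log2 fold change of at least 0.3 in size, siDEPDC1 (n = 4) left and siCTL (n = 3) right, with the mean and 1 SD. The groups are apart in 13 of the 14 plots, and in ENG siDEPDC1 library 4 (4.54 CPM) lies above siCTL library 3 (4.00 CPM).

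SMAD3 was the SMAD gene that changed. Among the 5 receptor-regulated and common SMAD genes, all tested, it alone passed, and it was lower. The called share was 20%, against 34.4% of all tested genes. SMAD3 (ENSG00000166949, chr15:67063763-67195195, plus strand), a direct carrier of the TGF-beta and activin signal to DNA, was at 206, 195, 191 and 202 CPM in siDEPDC1, against 310.2, 295 and 304 CPM in siCTL. The groups were far apart, with little spread within either, and the log2 fold change was -0.61 ± 0.053, a level 1.52-fold lower (edgeR adjusted p = 3.1e-11). SMAD2, its partner on the same branch, was at 82.2, 87.9, 90.9 and 78.0 CPM in siDEPDC1, against 86.6, 84.9 and 87.1 CPM in siCTL. The siDEPDC1 libraries lay on both sides of the siCTL libraries. Its log2 fold change was -0.03 ± 0.062, with an unadjusted 95% interval of -0.15 to 0.10 (edgeR adjusted p = 0.78). SMAD4, the common partner, was at 53.5, 52.7, 45.6 and 45.7 CPM in siDEPDC1, against 48.98, 53.8 and 53.2 CPM in siCTL. The groups overlapped. SMAD4 carries the word shown above, as SMAD3 does. Its log2 fold change was -0.07 ± 0.071, with an unadjusted 95% interval of -0.215 to 0.075 (edgeR adjusted p = 0.48). On the BMP branch, SMAD1 was at 5.54 ± 0.402 CPM in siDEPDC1 and 6.69 ± 1.02 CPM in siCTL, SMAD5 was at 108 ± 2.25 CPM in siDEPDC1 and 110 ± 6.45 CPM in siCTL, and neither passed.

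The 8 negative regulators changed in both directions, 3 lower and 1 higher, a called share of 50% against 34.4% of all tested genes. The genes of the nuclear corepressors SKIL and TGIF1 were lower, that of the membrane inhibitor PMEPA1 was higher, and those of the inhibitory SMADs did not pass. SKIL (ENSG00000136603, chr3:170357678-170396835, plus strand) encodes SnoN, which represses SMAD target genes and is degraded when TGF-beta signals. It was at 22.5, 19.7, 19.7 and 17.9 CPM in siDEPDC1, against 31.7, 30.1 and 35.7 CPM in siCTL. No siDEPDC1 library came near the siCTL range. Its log2 fold change of -0.70 ± 0.085 was the most negative of the tested members, a level 1.62-fold lower (edgeR adjusted p = 4.2e-08). SKI, the gene of the related corepressor, was at 105 ± 2.62 CPM in siDEPDC1 and 101 ± 1.37 CPM in siCTL and did not pass. TGIF1 (ENSG00000177426, chr18:3411608-3459978, plus strand), a homeodomain corepressor that binds SMADs, was at 37.1, 38.4, 35.4 and 34.7 CPM in siDEPDC1, against 52.7, 54.3 and 49.4 CPM in siCTL. The groups did not overlap, with a log2 fold change of -0.52 ± 0.069 (edgeR adjusted p = 2.9e-07).

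PMEPA1 (ENSG00000124225, chr20:57648392-57711536, minus strand) encodes a TGF-beta-induced membrane protein that keeps receptor-regulated SMADs from the receptor. It was at 98.0, 102, 97.3 and 104 CPM in siDEPDC1, against 67.0, 62.2 and 60.2 CPM in siCTL. All siDEPDC1 libraries were well above the siCTL libraries, with a log2 fold change of 0.67 ± 0.061, a level 1.59-fold higher (edgeR adjusted p = 8.5e-11). The antisense gene NKILA shares 6.1% of its exon bases and was at 1.87 ± 0.218 CPM in siDEPDC1 and 1.81 ± 0.385 CPM in siCTL. SMAD7, the inhibitory SMAD induced by TGF-beta, was at 6.55, 8.62, 7.82 and 7.22 CPM in siDEPDC1, against 7.07, 5.58 and 6.26 CPM in siCTL. A single siDEPDC1 library, number 1, fell within the siCTL range. Its log2 fold change of 0.27 ± 0.14 did not pass (edgeR adjusted p = 0.12), and the unadjusted 95% interval ran from -0.003 to 0.55. SMAD6, which acts mainly on the BMP branch, had a log2 fold change of 0.04 and did not pass. SMURF2, a ubiquitin ligase for receptors and SMADs, was at 229 ± 17.8 CPM in siDEPDC1 and 269 ± 7.96 CPM in siCTL and was lower (log2 fold change -0.23 ± 0.058, edgeR adjusted p = 0.0022). SMURF1, its close relative, did not pass, with a log2 fold change of 0.01.

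The ID genes encode helix-loop-helix proteins that block differentiation factors and are direct targets of BMP signalling. ID1 was at 28.2 ± 2.75 CPM in siDEPDC1 and 32.5 ± 1.92 CPM in siCTL (SD, n = 4 and 3), with a log2 fold change of -0.21 ± 0.081 (edgeR adjusted p = 0.042). The groups did not overlap, but the call was lost without siDEPDC1 library 4 (log2 fold change -0.14, edgeR adjusted p = 0.17), without siCTL library 1 (edgeR adjusted p = 0.051) or without siCTL library 2 (0.22). It was also lost with DESeq2 (adjusted p = 0.1), with library size alone (edgeR adjusted p = 0.09) and with the stricter filter of 50 counts (0.05). ID3 did not pass, and ID2 had 0 to 4 counts in each library and was not tested. With 2 of 3 genes tested, the called share was 50%, against 34.4% of all tested genes.

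The EMT transcription factor genes that could be tested did not move as a group. ZEB1 was lower, SNAI2 was higher, ZEB2 did not pass, and SNAI1, TWIST1 and TWIST2 were too low to test. With 3 of 6 genes tested, the called share was 66.7%, against 34.4% of all tested genes. ZEB1 (ENSG00000148516, chr10:31318495-31529814, plus strand), a repressor of epithelial genes, was at 94.9, 90.3, 85.2 and 80.7 CPM in siDEPDC1, against 110, 112 and 117 CPM in siCTL. The groups did not overlap, with a log2 fold change of -0.36 ± 0.061, a level 1.28-fold lower (edgeR adjusted p = 1.5e-05). SNAI2, the gene of the repressor SLUG, was at 22.4, 18.3, 20.2 and 18.4 CPM in siDEPDC1, against 14.1, 14.7 and 17.0 CPM in siCTL. Each siDEPDC1 library was above each siCTL library, by little where siCTL library 3 is concerned. The log2 fold change was 0.38 ± 0.096 (edgeR adjusted p = 0.0023). ZEB2, with 2 copies of the word shown above, was at 16.4 ± 0.771 CPM in siDEPDC1 and 16.6 ± 1.03 CPM in siCTL. TWIST1, which also carries the word, had 0 counts in all libraries, so no change could be seen in it. TWIST2 had 1 count in siCTL library 2 and none elsewhere. SNAI1 had 6, 7, 3 and 6 counts in siDEPDC1 and 9, 8 and 6 counts in siCTL, at which a difference was not detectable.

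Of 9 genes of the mesenchymal surface, cytoskeleton and matrix, 7 were tested, of which FN1 was lower and FBN1 higher. The called share was 28.6%, below the 34.4% of all tested genes. VIM, the intermediate filament gene most used to mark mesenchymal cells, was at 3491, 3685, 3773 and 3734 CPM in siDEPDC1, against 3733, 3869 and 3538 CPM in siCTL. The groups overlapped fully, and the log2 fold change was -0.02 ± 0.059, with an unadjusted 95% interval of -0.14 to 0.10 (edgeR adjusted p = 0.86). VIM shares 24.4% of its exon bases with 2 antisense genes, and without the strand setting their reads and those of VIM cannot be told apart. VIM-AS1 was at 1154 ± 97.3 CPM in siDEPDC1 and 1142 ± 102 CPM in siCTL, and the other, AL133415.1, was at 1127 ± 26.6 CPM in siDEPDC1 and 1163 ± 48.7 CPM in siCTL. Neither passed the test. FN1, fibronectin, was at 587, 476, 519 and 583 CPM in siDEPDC1, against 617, 637 and 637 CPM in siCTL. The siDEPDC1 libraries were all lower but spread widely, with library 2 the lowest. The log2 fold change was -0.22 ± 0.062 (edgeR adjusted p = 0.0053), and the call was lost without siDEPDC1 library 2 (-0.16, edgeR adjusted p = 0.054). FBN1, the gene of fibrillin, whose fibres hold latent TGF-beta, was at 87.7, 80.4, 92.5 and 90.3 CPM in siDEPDC1, against 71.5, 65.8 and 71.5 CPM in siCTL. The groups did not overlap, with a log2 fold change of 0.33 ± 0.063 (edgeR adjusted p = 8.5e-05).

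CD44, a hyaluronan receptor, was at 427 ± 12.7 CPM in siDEPDC1 and 403 ± 9.47 CPM in siCTL. It was the 1 uncalled member whose groups did not overlap (log2 fold change 0.08, edgeR adjusted p = 0.24). THBS1, a matrix protein that can activate latent TGF-beta, and TNC, a tenascin, had log2 fold changes of 0.10 and -0.14 and did not pass. TGFBI, a TGF-beta-induced matrix protein, had a log2 fold change of 0.16 (edgeR adjusted p = 0.066). TNC passed without siDEPDC1 library 1 (edgeR adjusted p = 0.016) or siDEPDC1 library 4 (0.036), and TGFBI passed without siCTL library 2 (0.032). CDH2, N-cadherin, had 6, 11, 7 and 10 counts in siDEPDC1 and 6, 9 and 3 counts in siCTL. SPARC, a collagen-binding matrix protein, had 3, 5, 4 and 12 counts in siDEPDC1 and 3, 16 and 9 counts in siCTL. Both were below the filter and were not tested, and their levels were near the detection limit in both groups.

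Levels of different genes were compared as CPM per kilobase of annotated exon. On that scale VIM led the members at 712 ± 24.2 in siDEPDC1 and 720 ± 32.3 in siCTL (SD, n = 4 and 3). Among the receptors TGFBR2 was highest, at 92.9 ± 2.89 in siDEPDC1 and 78.4 ± 0.756 in siCTL, followed by TGFBR1 at 25.03 ± 1.98 in siDEPDC1 and 28.98 ± 0.813 in siCTL. The type II receptor gene was therefore further above the type I receptor gene in siDEPDC1 than in siCTL. Next came BMPR2 at 8.98 ± 0.643 CPM per kilobase in siDEPDC1 and 9.76 ± 0.903 in siCTL. ENG was lowest, at 0.825 ± 0.238 in siDEPDC1 and 1.21 ± 0.18 in siCTL. ACVR1, TGFBR3 and BMPR1A lay at 3.38 ± 0.405, 3.31 ± 0.179 and 3.71 ± 0.325 CPM per kilobase in siDEPDC1, within their spread of each other. In siCTL they lay at 5.07 ± 0.514, 4.31 ± 0.552 and 4.00 ± 0.187, with ACVR1 and BMPR1A further apart than their SDs. Among the ligands TGFB1 led at 53.9 ± 3.42 in siDEPDC1 and 58.8 ± 1.4 in siCTL, followed by BMP4 at 44.8 ± 2.61 in siDEPDC1 and 48.5 ± 3.35 in siCTL. FST and TGFB2 were apart in siDEPDC1, at 30.7 ± 1.87 and 11.1 ± 0.211 CPM per kilobase, and level in siCTL, at 14.6 ± 0.302 and 14.6 ± 0.5. Of the SMADs, SMAD3 was the highest in both groups, at 21.8 ± 0.744 in siDEPDC1 and 33.2 ± 0.863 in siCTL, ahead of SMAD5 at 12.0 ± 0.248 in siDEPDC1 and 12.2 ± 0.713 in siCTL. SMAD2 was at 2.33 CPM per kilobase in siDEPDC1 and 2.37 in siCTL, but its annotation includes a 3' UTR of 32870 bases, so its level per length depends on how much of that is transcribed here.

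**Figure D3:**
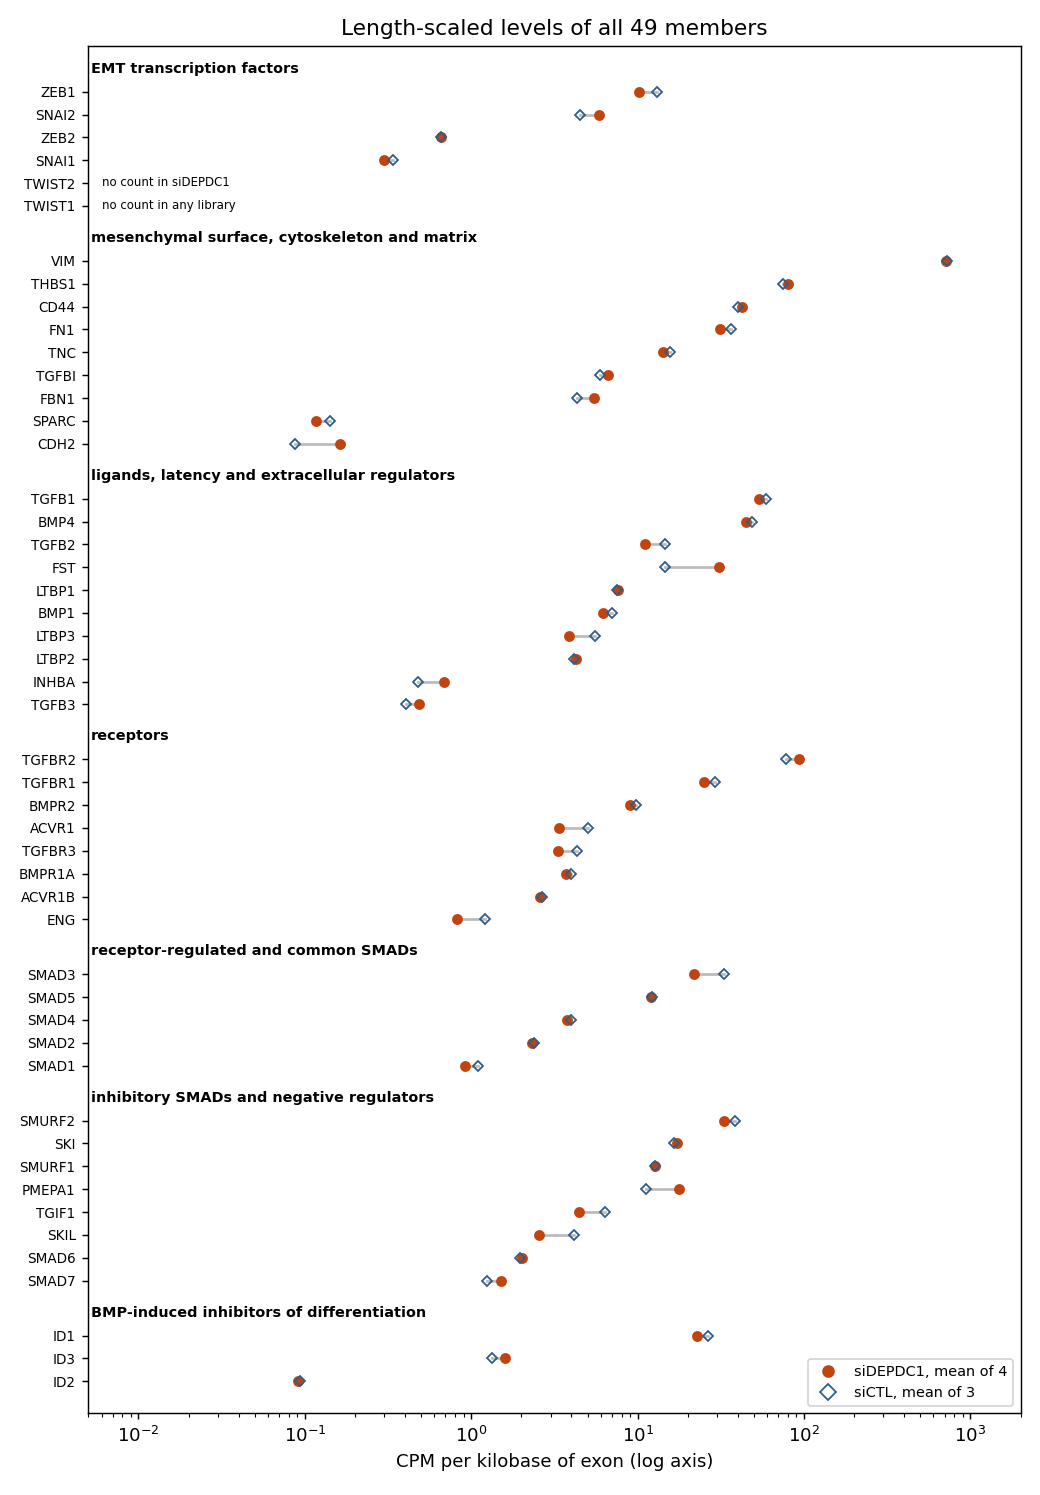
Mean CPM per kilobase of exon (log axis) of all 49 members in siDEPDC1 (filled circles, n = 4) and siCTL (open diamonds, n = 3), by role and in order of the siCTL level. The pairs of points lie close for most genes and furthest apart, among the tested genes, for FST (30.7 in siDEPDC1, 14.6 in siCTL), and members without a count in siDEPDC1 are marked in words.

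The other genes of the pathway were read from 7 lists that hold none of the 49 genes. These lists were drawn up with results of these data known, so they describe the surroundings of the members, and each called share stands against 34.4% of all tested genes. Of 26 other TGF-beta family ligand genes, 10 could be tested, of which 5 were higher and 1 was lower, a called share of 60%, with a median log2 fold change of 0.47. GDF15, a divergent member of the family induced in many forms of cell stress, was at 51.6 ± 9.19 CPM in siDEPDC1 and 10.8 ± 0.898 CPM in siCTL (log2 fold change 2.24, edgeR adjusted p = 6.3e-13). GDF11 and BMP8B were higher, with log2 fold changes of 0.49 and 0.64, and AMH, anti-Müllerian hormone, was lower, with -0.48. The call of AMH was lost, leaving 0 lower ligand genes, when siCTL library 1 or 2 or siDEPDC1 library 2 or 3 was left out. Of 13 other receptor and co-receptor genes, 6 were tested and 2 were lower, a called share of 33.3%. They were the BMP receptor gene BMPR1B (log2 fold change -0.66) and the activin receptor gene ACVR2A (-0.33). That count was 1 when siCTL library 1 or 3 or siDEPDC1 library 2 or 4 was left out, and 0 without siCTL library 2.

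Of 28 genes of extracellular antagonists and latency activation, 17 were tested, of which 5 were lower and 3 higher (47.1% called, median 0.02, log2). The lower genes included 2 integrin subunits, ITGAV and ITGB3, which pair into a receptor that can bind latent TGF-beta. ITGAV was at 93.6 ± 13.6 CPM in siDEPDC1 and 144 ± 10.7 CPM in siCTL (log2 fold change -0.61, edgeR adjusted p = 1.4e-06), and ITGB3 was at 2.6 ± 0.612 CPM in siDEPDC1 and 5.97 ± 0.372 CPM in siCTL (-1.18, edgeR adjusted p = 1.2e-06). TWSG1, a BMP-binding protein, was lower as well (-0.31). The higher genes were LTBP4 (0.44), the integrin subunit ITGB1 (0.17) and the convertase FURIN (0.19), which cuts TGF-beta precursors, and their number was 1 without siCTL library 1. All 35 genes of SMAD partners and pathway regulators were tested, of which 9 were lower and 5 higher (40% called against 34.4% of all tested genes, median -0.08, log2). USP4 and USP15, deubiquitinating enzymes that act on the type I receptor, had log2 fold changes of -0.36 and -0.33, and the ubiquitin ligase gene XIAP had -0.26. NEDD4L, a ligase that acts on SMAD2 and SMAD3, was higher (0.24), as were the polarity gene PARD6A (0.47) and the GTPase gene RHOA (0.20).

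The list of TGF-beta induced genes changed in both directions and often. Of 46 genes, 35 were tested, of which 12 were higher and 9 lower, a called share of 60% against 34.4% of all tested genes. Its median log2 fold change was -0.09, below 0 although more genes were higher than lower. COL7A1, the collagen of anchoring fibrils, was at 132 ± 11.3 CPM in siDEPDC1 and 59.4 ± 3.89 CPM in siCTL (log2 fold change 1.15, edgeR adjusted p = 1e-15), and the type I collagen gene COL1A1 was at 30.2 ± 2.52 CPM in siDEPDC1 and 12.9 ± 1.36 CPM in siCTL (1.22, edgeR adjusted p = 5.4e-13). The myosin light chain gene MYL9 was higher too (0.61). In the other direction, ITGA5, a subunit of the fibronectin receptor, was at 139.9 ± 10.1 CPM in siDEPDC1 and 258 ± 10.3 CPM in siCTL (-0.88, edgeR adjusted p = 1.9e-14). The basement membrane collagen gene COL4A1 had a log2 fold change of -0.87, and CALD1, an actin-binding regulator of contraction, had -1.01.

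Of 27 other mesenchymal genes and EMT regulators, 19 were tested, of which 5 were lower and 5 higher (52.6% called, median 0.09, log2). QKI, an RNA-binding protein that directs splicing in EMT, was at 112 ± 5.06 CPM in siDEPDC1 and 195 ± 8.63 CPM in siCTL (log2 fold change -0.80, edgeR adjusted p = 1.2e-13), and CDH11, a mesenchymal cadherin, was at 208 ± 10.1 CPM in siDEPDC1 and 328 ± 19.0 CPM in siCTL (-0.65, edgeR adjusted p = 1.8e-11). EFEMP1, a fibulin, was lower (-0.49), while GNG11 (0.54), the E-protein gene TCF3 (0.32) and EMP3 (0.16) were higher. The number of higher genes was 3 when siCTL library 1 or 3 or siDEPDC1 library 2 was left out, and 2 without siCTL library 2 or siDEPDC1 library 3. Of 28 epithelial genes that are repressed in EMT, 21 were tested, of which 5 were higher and 5 lower (47.6% called, median 0.12, log2). The keratin genes KRT18 (0.30) and KRT8 (0.28) and the membrane protease gene ST14 (0.97) were higher. KRT18 and KRT8 overlap on opposite strands in the annotation, so reads from any shared exon bases cannot be told apart. The tight junction gene OCLN (-0.93) and the desmosome gene DSP (-0.39) were lower. CDH1, E-cadherin, was lower as well (-1.55), at levels close to the detection limit of 0.372 ± 0.139 CPM in siDEPDC1 and 1.11 ± 0.378 CPM in siCTL. The 5 lower epithelial genes were 3 without siCTL library 1 and 2 without siDEPDC1 library 2.

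**Figure D4:**
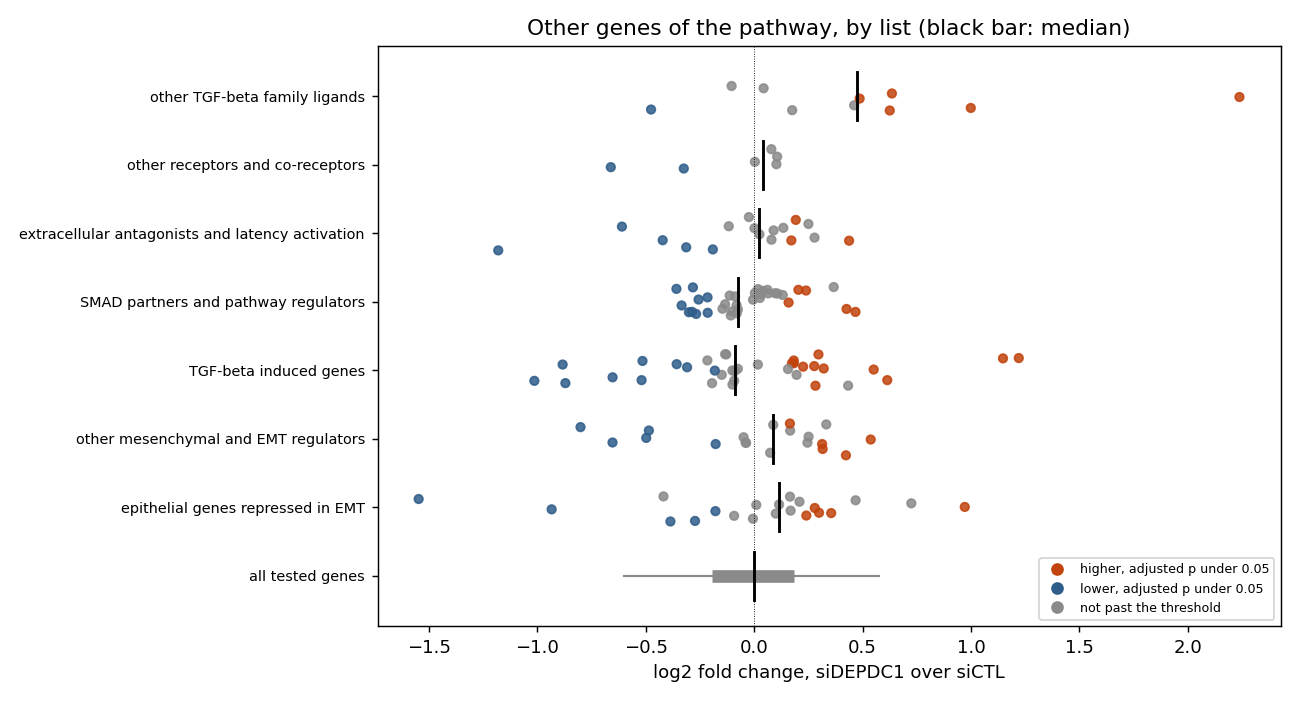
Log2 fold change, siDEPDC1 over siCTL, of each tested gene (points) in 7 lists of other pathway, mesenchymal and epithelial genes, with the median of each list as a black bar. The bottom row gives all tested genes (thick bar from the 25th to the 75th percentile, thin line from the 5th to the 95th), and the medians of the lists lie between -0.09 and 0.47, with GDF15 (2.24) the point furthest to the right.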

How the data were processed

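RNA from MDA-MB-231 cells (siDEPDC1, 4 libraries; siCTL, 3 libraries) was sequenced from a TruSeq RNA kit as paired reads of 100 bases, per the labels' protocols. The authors deposited raw counts per Ensembl gene and library, neither pooled nor normalized as far as the values show. The submitters' processing notes name GRCh38 as the build and list STAR 2.7.9a, FastQC and DESeq2 without saying what each did. How reads were assigned to genes (counter, annotation, strand) and how RNA was selected are not given in these sources, so reads of genes that overlap on opposite strands cannot be told apart. Of the 49 members, 22 share exon bases with a gene on the opposite strand, at most 24.43% of a member's exon bases.

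Of 60675 identifiers, 58444 were found in GENCODE release 29, the source of coordinates, exon lengths and 3' UTRs. filterByExpr by group left 16583 genes. Testing used edgeR 4.0.16 under R 4.3.3 on the deposited counts (TMM, robust glmQLFit, glmQLFTest, two-sided, Benjamini-Hochberg at 0.05, group as the only term). The script was tested on simulated counts with known changes. CPM were scaled with TMM factors, SDs are over libraries, and the SE is that implied by the F statistic, with 95% intervals from its t quantile. "Lower", "higher" and "changed" are used of genes past the adjusted threshold. No 2 libraries of a group agreed within sampling noise, with a chi-square per degree of freedom of 1.67 to 4.59. Word searches used 1 transcript per gene with a 3' UTR of at least 50 bases.

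The members and all lists were chosen with earlier results of these data known. Values in every library are given for called members with a log2 fold change of at least 0.3 in size and for VIM, FN1, ZEB1, TGFB1, TGFB2, TGFBR1, TGFBR2, SMAD2, SMAD3, SMAD4 and SMAD7. From each other list, up to 3 called genes per direction with the smallest adjusted p are named, and INHBB is given beside INHBA. Alternatives were DESeq2 1.42.0, its size factors, library size alone, no count filter, a minimum of 50 counts throughout a group, limma-voom (limma 3.58.1), a block on replicate numbers, thinning to the smallest library, and each library left out in turn. The result of 1 list of cell type markers is not reported here.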

Additional observations from a re-analysis of the deposited data

Results flagged for a closer look

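In 5 of the 46 sets of siDEPDC1 values examined, 1 library stood apart from the other three, its gap to the next library filling more of the group's range than Dixon's 95% critical value for 4 samples allows. Chance alone gives this in about 1 in 20 sets, and groups of 3 were not examined. In siDEPDC1 library 4, TGFB1 was high (190.9 CPM, gap 0.908 of the range) and ID1 was low (24.06 CPM, gap 0.945). In siDEPDC1 library 3, THBS1 was high (790.7 CPM, gap 0.831), and the share of counts from mitochondrially encoded genes was high (4.351%, gap 0.961), though below the 4.692% of siCTL library 3. In siDEPDC1 library 1, TGFBR2 was high (457.4 CPM, gap 0.907).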

How the results depend on the processing

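Of 684 results for the 43 tested members under 16 alternatives, 650 stayed on their side of the threshold, 23 lost the call, 11 gained it and 0 called values changed sign. Uncalled values near 0 did take the other sign in 24 results of 8 members (ZEB2, VIM, LTBP1, LTBP2, ACVR1B, SMAD2, SMAD5 and SMURF1), so no direction is read for these. Of the 20 called members, 15 were called under every alternative that tested them, and the exceptions were FN1, BMP1, TGFBR1, ENG and ID1. INHBA, ENG, TGFB3 and ID3 were not tested with the stricter filter. The number of lower members ran from 11 to 16 (14 as reported) and that of higher members from 6 to 7 (6 as reported). Leaving out a library in turn gave 11 to 16 lower members, and 2462 to 3159 lower and 2132 to 2981 higher genes overall (2975 and 2732 as reported). With a replicate block on numbers 1 to 3, which leaves siDEPDC1 library 4 out, 13 members were lower and 6 higher, against 15 and 6 in the same 6 libraries without it. TGFBR1 lost its call under the block alone (edgeR adjusted p = 0.057), and all genes gave 2437 lower and 2292 higher calls, against 2767 and 2627 without it. Same-numbered libraries did not deviate together (correlations -0.116, -0.042 and 0.003), so the numbers are not taken as pairs. TGFB1 gained a call without siDEPDC1 library 4, TGFBI with library size alone, the stricter filter or no siCTL library 2, TNC with thinned libraries or without siDEPDC1 library 1 or 4, and BMPR2 without siDEPDC1 library 1. The other ligand list had 3 higher genes with DESeq2, the stricter filter, the block or thinned libraries. With DESeq2 or thinned libraries it had 0 lower genes, and so had the other receptor list, and the other mesenchymal list had 3 higher genes with DESeq2 and 2 without the count filter. The causes of these shifts were not tested. SNAI1, TWIST1, TWIST2, CDH2, SPARC and ID2 were below the count filter, with at most 16 counts in any library.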
